A study of Mus musculus with 40 samples.

Results

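The neutrophil-attracting CXC chemokines Cxcl1, Cxcl2, Cxcl3 and Cxcl5 and their receptors Cxcr1 and Cxcr2 were followed across sorted cells of mouse colon tumors, healthy colon and blood. The 4 ligands and 2 receptors were chosen by gene symbol, each symbol matched 1 Ensembl gene, and together they are 6 of the 45706 genes measured. RNA sequencing covered 40 libraries in 10 groups of 4. Tumor-bearing mice carried Cdx2CreERT2 with Apc fl/fl on a C57Bl6/Sv129 background and received 1 injection of Tamoxifen at 25 mg/kg body weight at an age of 8 to 10 weeks, which activates Cre recombinase in cells that express Cdx2, a gene of the hindgut epithelium. Healthy mice were C57Bl6, with neither the transgene nor Tamoxifen in their labels, so that strain, transgene and agent cannot be told apart from the tumor in any comparison of tumor-bearing with healthy mice. The groups were neutrophils, monocytes, epithelial cells and stromal cells from colon tumors, neutrophils and monocytes from blood of tumor-bearing mice, the same blood cells of healthy mice, and epithelial and stromal cells of healthy colon. Sorting used EpCAM and CD45 for epithelial and stromal cells, and CD11b, MHCII, Ly6G and Ly6C for the myeloid cells. The titles of 4 libraries name 2 animals each, 3 of them from healthy mice.

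CXC chemokines with a glutamate-leucine-arginine motif before the first cysteines bind CXCR2, a G protein-coupled receptor that directs neutrophils along a gradient of ligand out of the marrow and into tissue. CXCR1 is a close relative of CXCR2. The ligand genes are known targets of interleukin 1, tumor necrosis factor and interleukin 17 acting through NF-kappaB, and their mRNAs are short-lived. In the gut these ligands are made by epithelium, fibroblasts and myeloid cells during inflammation.

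The 4 ligand genes lie on the plus strand of chromosome 5 (genome build mm10), among other chemokine genes. Cxcl5 (ENSMUSG00000029371) is at chr5:90759360-90761624, next to Ppbp. Cxcl3 (ENSMUSG00000029379) is at chr5:90786103-90789600, Cxcl1 (ENSMUSG00000029380) at chr5:90891241-90893115 and Cxcl2 (ENSMUSG00000058427) at chr5:90903871-90905938. The last 2 are neighbors. The receptors are neighbors on chromosome 1, Cxcr2 (ENSMUSG00000026180) on the plus strand at chr1:74153989-74161246 and Cxcr1 (ENSMUSG00000048480) on the minus strand at chr1:74191785-74194631. No other annotated gene overlaps any of the 6. Cxcl2 and Cxcl3 share stretches of transcript: 126 of the 2159 distinct 50-base words of Cxcl2 also occur in Cxcl3, so that single reads from there could be placed on either gene. No other pair of members shares such a word.

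Promoter sequences are shown for the 3 ligand genes that rose together in several cell types, and for Cxcr2, which did not rise with them in tumor neutrophils or monocytes. They are the stretch from 110 to 21 bases before the RefSeq start (GRCm38.p6), with matches to a kappaB-type motif and to ATAAAA in capitals:
Cxcl1 (chr5:90891135-90891224, plus strand): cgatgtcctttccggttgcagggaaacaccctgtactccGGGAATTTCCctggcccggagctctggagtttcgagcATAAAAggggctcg
Cxcl2 (chr5:90903789-90903878, plus strand): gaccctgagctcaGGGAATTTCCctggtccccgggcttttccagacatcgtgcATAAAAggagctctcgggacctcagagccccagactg
Cxcl3 (chr5:90785991-90786080, plus strand): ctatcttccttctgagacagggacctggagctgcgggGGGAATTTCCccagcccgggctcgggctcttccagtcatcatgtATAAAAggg
Cxcr2 (chr1:74153884-74153973, plus strand): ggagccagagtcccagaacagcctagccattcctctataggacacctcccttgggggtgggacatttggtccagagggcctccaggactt

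The kappaB-type motif searched was GGGA, 1 base of any kind and TTTCC, on both strands of the 250 bases before the start. Cxcl1, Cxcl2 and Cxcl3 each held it once, spelled alike, with the first base at -71, -97 and -73 and followed downstream by ATAAAA at -34, -57 and -29. Of 32817 promoters of this length, 117 (0.357%) held the kappaB-type motif and 17% held ATAAAA on either strand. The Cxcr1 and Cxcr2 windows held no match to the kappaB-type motif. A match is a description of letters, not evidence of binding, and Cxcl5 was not among the promoter entries.

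Counts on genes ranged from 10717873 to 38002939 per library, of which 5.34% to 83.9% fell on mitochondrial genes, with the highest shares in epithelial cells. Defining markers fitted the labels of the myeloid and epithelial groups: 8 of 8 neutrophil markers reached 1 RPKM (reads per kilobase of transcript, scaled for library size) in every neutrophil library, as did 5 of 5 monocyte markers in every monocyte library and 11 of 11 epithelial markers in every epithelial library. Apc, counted over the whole gene and hence also over exons that Cre leaves in place, was at 6.20 ± 0.253 RPKM (SD, n = 4) in tumor and 2.08 ± 1.27 in healthy epithelial cells, so its level does not check the deletion. The tumor stromal libraries stood apart. In healthy colon stromal cells all 7 fibroblast markers reached 1 RPKM in every library, with a summed level of 359 to 2017 RPKM, whereas in tumor stromal cells 3 of 7 did, with a sum of 6.03 to 24.1. Tumor stromal replicates 1 to 4 had epithelial marker sums of 247, 140, 53.5 and 31.4 RPKM. These sums were 158 to 403 in tumor epithelial and 2.48 to 23.8 in healthy colon stromal cells. Tumor stromal replicates 3 and 4 had neutrophil marker sums of 1536 and 508 RPKM, against 40.8 and 8.18 in replicates 1 and 2 and 1889 to 12243 in tumor neutrophils. Tumor neutrophil replicate 1 had the lowest neutrophil marker sum of its group and the highest epithelial marker sum, 180 RPKM against 13.3 to 40.05 in the other replicates. In bulk libraries, fewer cells of a type and less RNA per cell cannot be told apart.

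The receptors and the ligands were highest in different cells. Cxcr2 was a transcript of neutrophils, with 529 ± 65.9 RPKM in those from blood of tumor-bearing mice, 484 ± 123 in those of healthy mice and 302 ± 168 in tumor neutrophils. Neighbors in this order overlapped. Next came tumor stromal cells at 18.8 ± 21.1 RPKM, below every tumor neutrophil library, and all other groups were under 2 RPKM on average. Cxcr1 followed the same cells at a far lower level, 5.21 ± 0.767 RPKM in neutrophils from blood of tumor-bearing mice, 3.37 ± 1.72 in those of tumors and 1.81 ± 0.836 in those of healthy mice. It had 0 counts, after rounding, in all libraries of tumor monocytes, blood monocytes of healthy mice and healthy colon epithelial cells.

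Cxcl2 was highest in tumor neutrophils, at 658 ± 241 RPKM, followed without overlap by tumor monocytes at 172 ± 79.8 and tumor stromal cells at 25.4 ± 20.5. The remaining 7 groups, from blood neutrophils of tumor-bearing mice at 19.98 ± 13.2 RPKM down to healthy colon epithelial cells at 0.147 ± 0.127, each overlapped the next. Cxcl3 had the same leading order, with 81.2 ± 48.2 RPKM in tumor neutrophils, 21.0 ± 7.70 in tumor monocytes and 2.06 ± 1.59 in tumor stromal cells. Cxcl1 had another order: its highest mean was in healthy colon stromal cells, 50.8 ± 64.9 RPKM, a mean that rests on replicate 4 at 147 RPKM against 10.6 to 31.7 in the others. Tumor neutrophils (17.1 ± 10.3 RPKM), tumor epithelial cells (11.5 ± 8.41), tumor stromal cells (10.7 ± 6.09) and tumor monocytes (9.17 ± 5.32) followed and overlapped. All 4 lay above healthy colon epithelial cells at 0.530 ± 0.279 RPKM. Cxcl5 was the lowest ligand, with its highest mean of 1.28 ± 0.561 RPKM in tumor epithelial cells. Over the 54 tests of neighboring groups, no step reached a Benjamini-Hochberg adjusted p under 0.05: steps without overlap had the smallest exact permutation p that 70 arrangements allow, 0.0286, which is 0.193 after adjustment.

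**Figure D1:**
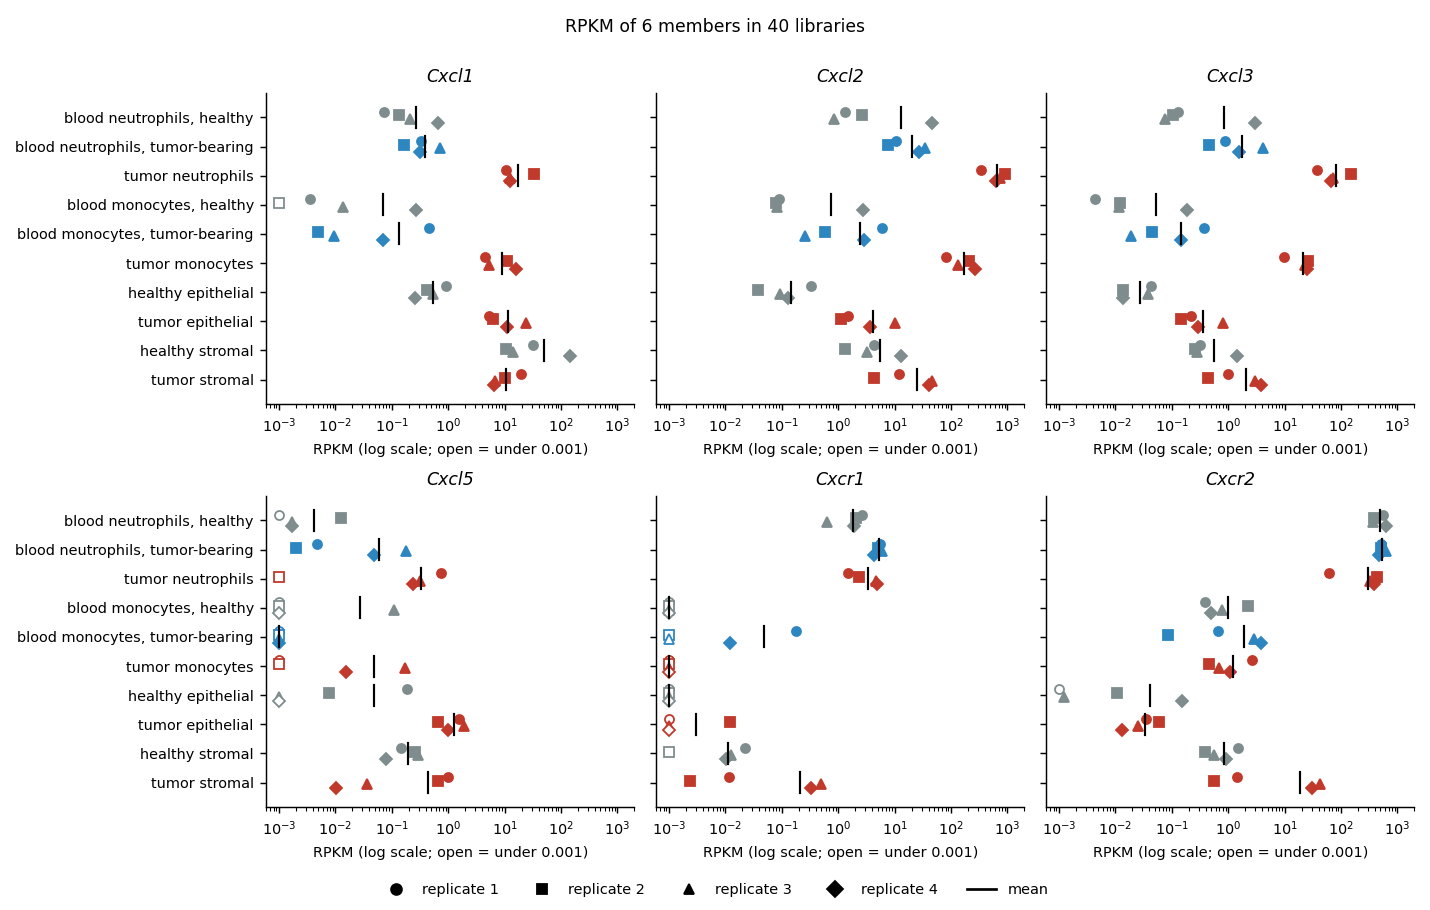
RPKM (log axis) of each member in the 40 libraries, by group on the vertical axis; marker shapes are replicates 1 to 4, open markers lie under 0.001 RPKM and bars are means of 4 libraries. Cxcl2 and Cxcl3 peak in tumor neutrophils, with means of 658 and 81.2 RPKM, whereas Cxcr2 has means of 302 to 529 RPKM in the 3 neutrophil groups.

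Neutrophils from tumors were compared with blood neutrophils of the tumor-bearing mice, the question being how these sets of cells differ. Cxcl1, Cxcl2 and Cxcl3 rose, the receptors did not pass the test, and so 3 of 6 members were called, beside 16.3% of all genes tested. A call means an edgeR adjusted p under 0.05 with a log2 fold change beyond 1.5. Cxcl2 was at 336, 906, 753 and 638 RPKM in tumor replicates 1 to 4 and at 10.5, 7.57, 35.3 and 26.6 in blood. The lowest tumor library thus lay above the highest blood library, and the log2 fold change was 5.19 ± 0.75 (SE, edgeR adjusted p = 0.0015). Cxcl3 was at 37.4, 150, 70.9 and 66.5 RPKM in tumor and 0.886, 0.450, 4.22 and 1.57 in blood. Its log2 fold change was 5.73 ± 0.94 (edgeR adjusted p = 0.0025), again with no overlap. Cxcl1, the ligand that directs neutrophils from the marrow in many settings, was at 10.7, 32.6, 12.5 and 12.7 RPKM in tumor and 0.324, 0.166, 0.728 and 0.311 in blood, a log2 fold change of 5.73 ± 0.78 (edgeR adjusted p = 0.00108). Each of the 3 genes had an exact two-sided permutation p of 0.0286 on RPKM, the smallest possible here. These calls held in every alternative run, including each left-out library. Markers of immature neutrophils summed to 164 to 508 RPKM in blood and 8.22 to 68.5 in tumor neutrophils. Macrophage markers summed to 2.50 to 6.88 RPKM in blood and 24.0 to 35.3 in tumor neutrophils. Epithelial markers summed to 0.656 to 1.55 RPKM in blood and 13.3 to 180 in tumor neutrophils. The part of such cells in the ligand result was not tested.

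Cxcl5 was at 0.749, 0, 0.314 and 0.234 RPKM in tumor neutrophils and up to 0.182 in blood neutrophils (log2 fold change 2.14 ± 1.38, edgeR adjusted p = 0.314). Its highest tumor value was in replicate 1, the library with the highest epithelial marker sum, and the part of that in the value was not tested. Cxcr2 was at 60.4, 441, 325 and 380 RPKM in neutrophils of tumors and 506, 514, 623 and 471 in those of blood. All tumor libraries were below all blood libraries (exact two-sided permutation p = 0.0286), but the edgeR log2 fold change of -0.60 ± 0.63 did not pass the test (adjusted p = 0.553). Cxcr1 was at 1.51, 2.33, 4.71 and 4.95 RPKM in tumor and 5.52, 5.04, 6.03 and 4.23 in blood, so the groups overlapped (log2 fold change -0.57 ± 0.46, edgeR adjusted p = 0.435). For both receptors the lowest tumor value was in replicate 1.

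Monocytes showed the same 3 ligands higher in tumors than in blood. Of 4 members tested 3 were called, beside 11.7% of all genes, while Cxcl5 and Cxcr1 were too low in count to be tested. Cxcl1 and Cxcl3 were too low in blood monocytes to pass the count filter there and passed it through the tumor libraries. The count of 3 was thus partly fixed by the filter. Cxcl2 was at 82.5, 210, 132 and 262 RPKM in tumor monocytes and 5.87, 0.574, 0.263 and 2.89 in blood monocytes of tumor-bearing mice (log2 fold change 6.43 ± 0.93, edgeR adjusted p = 0.00112). Cxcl3 was at 9.68, 26.4, 22.9 and 25.1 RPKM in tumor and 0.378, 0.0441, 0.0188 and 0.147 in blood (7.42 ± 0.81, edgeR adjusted p = 0.000192). Cxcl1 was at 4.55, 10.9, 5.30 and 15.9 RPKM in tumor and 0.455, 0.00495, 0.00958 and 0.0686 in blood (6.30 ± 1.03, edgeR adjusted p = 0.00229). For each of the 3 the groups did not overlap. Cxcr2 stayed low in both, at 0.466 to 2.65 RPKM in tumor and 0.0865 to 3.87 in blood, with a log2 fold change of -0.38 ± 0.92 (edgeR adjusted p = 0.821).

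Neutrophil markers summed to 61.2 to 102 RPKM (median 74.3) in tumor monocytes and 96.3 to 263 (median 189) in blood monocytes of tumor-bearing mice, against at least 1889 in every tumor neutrophil library. The part of neutrophil RNA in the monocyte result was not tested. The difference between the neutrophil and the monocyte change was tested directly. It was -1.35 ± 1.05 on the log2 scale for Cxcl2, -1.80 ± 1.10 for Cxcl3 and -0.69 ± 1.17 for Cxcl1, and no member was called in edgeR, DESeq2 or limma-voom, beside 3.95% of all genes. Of the 6 members 1 had an unadjusted edgeR p under 0.05. That member was Cxcr1, at 4.13 ± 1.76 (edgeR adjusted p = 0.194), a fitted value over tumor monocytes with 0 counts. Tumor tissue was digested with enzymes and blood was not. The 9 dissociation-response genes, such as Fos and Hspa1a, summed to 196 to 380 RPKM in neutrophils of tumors and 60.3 to 141 in those of blood, and to 126 to 339 in tumor and 46.5 to 163 in blood monocytes. Digestion and the tumor cannot be told apart here.

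**Figure D2:**
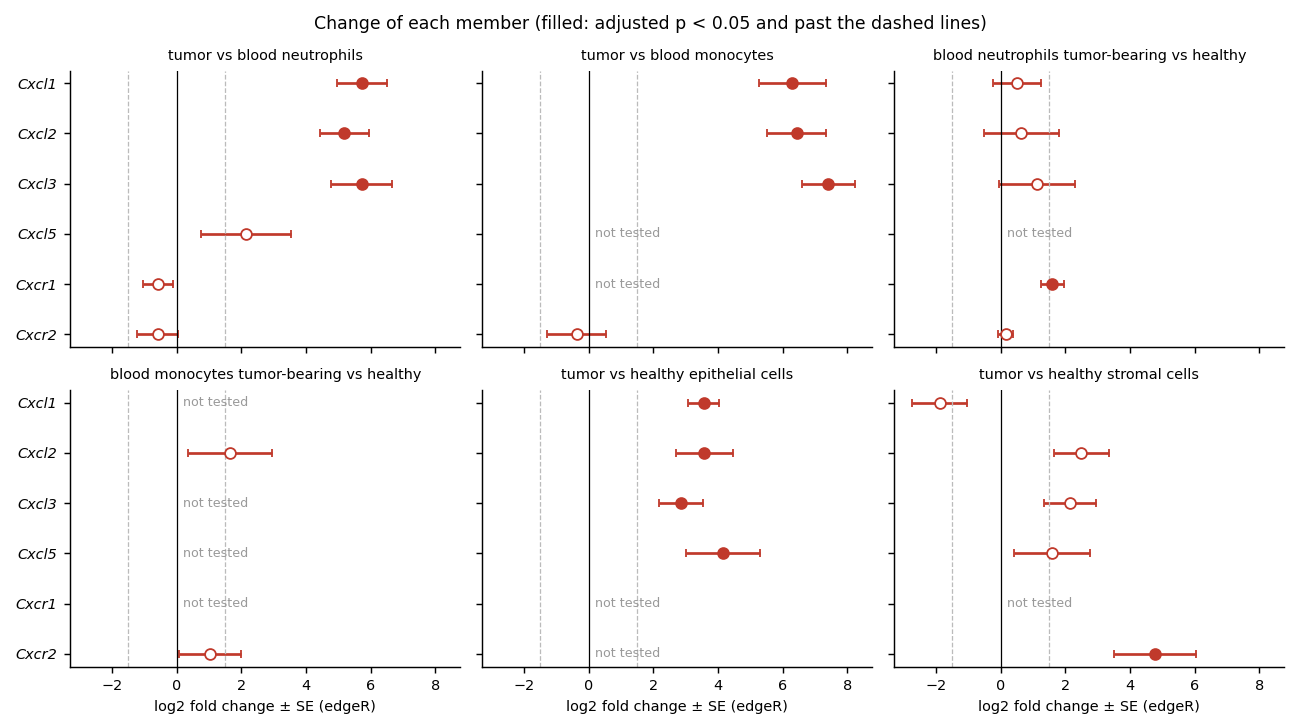
Log2 fold change with its standard error (edgeR, 4 libraries a group) of each member in 6 comparisons; filled points passed the threshold, dashed lines mark a log2 fold change of 1.5 in either direction and untested members are named. Cxcl1, Cxcl2 and Cxcl3 are filled and between 2.85 and 7.42 in neutrophils, monocytes and epithelial cells.

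Epithelial cells of tumors were compared with those of healthy colon. All 4 ligands were higher in tumor cells: 4 of 4 members tested were called, beside 15.4% of all genes, and the receptors, at no more than 0.149 RPKM in any epithelial library, were not tested. Cxcl3 and Cxcl5 were too low in healthy cells to pass the count filter there and passed it through the tumor libraries. The count of 4 was thus partly fixed by the filter. Cxcl1 was at 5.23, 6.33, 23.6 and 10.99 RPKM in tumor and 0.912, 0.419, 0.533 and 0.255 in healthy epithelial cells. Every tumor library was above every healthy one, and the log2 fold change was 3.55 ± 0.49 (edgeR adjusted p = 0.000595). Cxcl5, a ligand known as a product of epithelial cells, was at 1.58, 0.673, 1.91 and 0.972 RPKM in tumor and 0.185, 0.00770, 0 and 0 in healthy cells, where it had 20 counts in all. Its log2 fold change of 4.15 ± 1.15 (edgeR adjusted p = 0.0255) was lost when tumor replicate 1, 3 or 4 or healthy replicate 2 was left out, and 3 of 4 members then remained called. Cxcl2 rose by 3.58 ± 0.87 (edgeR adjusted p = 0.0137), from 0.147 ± 0.127 to 4.12 ± 4.16 RPKM, and Cxcl3 by 2.85 ± 0.69 (edgeR adjusted p = 0.0132), from 0.0268 ± 0.0152 to 0.363 ± 0.296. For each of the 4 genes the groups did not overlap (exact two-sided permutation p = 0.0286 each).

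Among the tumor epithelial libraries, replicate 3 was highest for all 4 ligands, and it also had the highest epithelial marker sum, 403 RPKM against 158 to 257 in the others. Neutrophil marker mRNA was scarce in tumor epithelial cells, with a sum of 0.951 to 4.60 RPKM against 6.66 to 12.4 in healthy epithelial cells. Other lists went the other way. Endothelial markers summed to 4.44 to 4.83 RPKM in tumor and 0.0577 to 0.436 in healthy epithelial cells. Platelet and erythroid markers summed to 12.1 to 34.2 and 0.776 to 8.48. Macrophage marker sums overlapped, at 1.88 to 12.6 and 2.75 to 84.7. The part of such cells in the ligand result was not tested. The dissociation-response genes summed to 360 to 701 RPKM in tumor and 58.7 to 348 in healthy epithelial cells, and their part in the ligand result was not tested. With 1 spread estimated over all 40 libraries, only Cxcl1 was called of the 4 ligands, beside 2576 of 22122 genes.

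Stromal cells gave no common direction. Of 5 members tested, Cxcr2 was called, beside 8.4% of all genes, and no ligand was. Cxcr2 was at 1.43, 0.559, 42.3 and 30.9 RPKM in tumor and 1.52, 0.387, 0.550 and 0.912 in healthy stromal cells, a log2 fold change of 4.76 ± 1.27 (edgeR adjusted p = 0.0491). The groups overlapped, and the high values were in replicates 3 and 4, the libraries with high neutrophil marker sums. Without these 2 libraries the log2 fold change of Cxcr2 was 0.63 ± 0.57. Without any 1 of tumor replicates 3 and 4 or healthy replicates 1, 2 and 3 no member was called. Without healthy replicate 4, Cxcl2 (3.44 ± 0.82) and Cxcl3 (3.18 ± 0.71) were called and Cxcr2 was not.

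Cxcl2 was at 11.7, 4.28, 45.4 and 40.4 RPKM in tumor and 4.36, 1.34, 3.21 and 12.97 in healthy stromal cells (log2 fold change 2.49 ± 0.85, edgeR adjusted p = 0.103). Cxcl3 had a similar spread, from 0.433 to 3.77 RPKM in tumor and 0.253 to 1.41 in healthy cells (2.14 ± 0.80, edgeR adjusted p = 0.134). Both were highest in tumor replicates 3 and 4. Cxcl1 was at 19.5, 10.1, 6.79 and 6.43 RPKM in tumor and 31.7, 10.6, 13.8 and 147 in healthy cells (-1.89 ± 0.86, edgeR adjusted p = 0.212). The dissociation-response genes summed to 393.5 to 569 RPKM in tumor and 810 to 1880 in healthy stromal cells, and their part was not tested. Nor was that of fibroblasts, whose marker sums given above were lower in tumor stromal cells without overlap. Cxcl5 was at 1.01, 0.669, 0.0362 and 0.0101 RPKM in tumor stromal cells. It was highest in replicates 1 and 2, which had the higher epithelial marker sums, and near 0 in replicates 3 and 4. Set against the same healthy cells, whose levels were 0.0800 to 0.287 RPKM, its log2 fold change was 2.50 ± 0.60 with tumor replicates 1 and 2 alone and -2.78 ± 1.00 with replicates 3 and 4 alone, against 1.58 ± 1.17 (edgeR adjusted p = 0.448) with all 4. Cxcr1 was not tested, and 71 of its 72 counts in tumor stromal cells were in replicates 3 and 4.

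**Figure D3:**
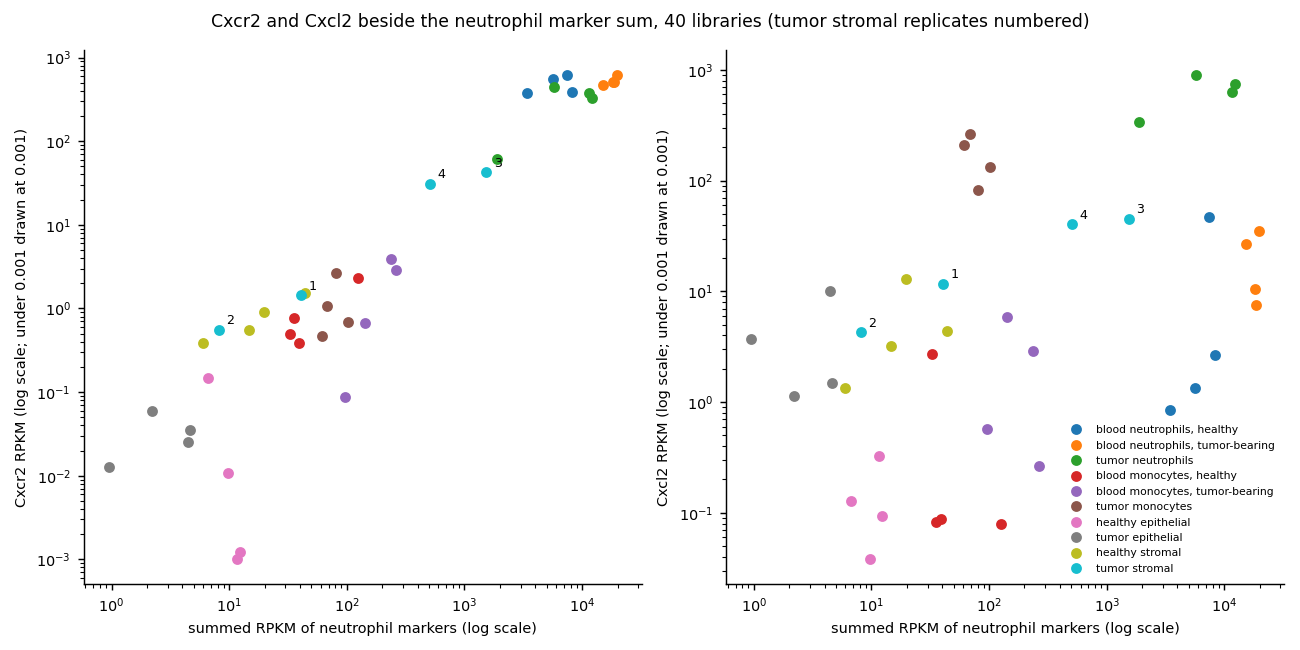
Cxcr2 (left) and Cxcl2 (right) RPKM against the summed RPKM of 8 neutrophil markers in each of 40 libraries, both on log axes, colored by group, with tumor stromal replicates numbered. Tumor stromal replicates 3 and 4 sit with marker sums of 1536 and 508 RPKM and Cxcr2 of 42.3 and 30.9, and tumor monocytes reach 82.5 to 262 RPKM of Cxcl2 at marker sums of 61.2 to 102.

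In blood, neutrophils of tumor-bearing mice were set against those of healthy mice. Cxcr1 rose and was the 1 member called of 5 tested, beside 4.01% of all genes. It was at 5.52, 5.04, 6.03 and 4.23 RPKM in tumor-bearing and 2.61, 2.04, 0.637 and 1.94 in healthy mice, without overlap (exact two-sided permutation p = 0.0286). The log2 fold change was 1.59 ± 0.36 (edgeR adjusted p = 0.0291), close to the threshold of 1.5, and the call was lost when any of tumor-bearing replicates 1, 2 and 3 or healthy replicates 2, 3 and 4 was left out. Without healthy replicate 4, Cxcl2 (3.82 ± 0.65) and Cxcl3 (4.29 ± 0.83) were called in its place. Markers of immature neutrophils, such as Ngp and Ltf, summed to 164 to 508 RPKM in tumor-bearing and 3.96 to 15.3 in healthy mice. Their part in the Cxcr1 result was not tested.

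Cxcr2 overlapped between the 2 sets of blood neutrophils, at 471 to 623 RPKM in tumor-bearing and 372 to 617 in healthy mice (log2 fold change 0.15 ± 0.23, edgeR adjusted p = 0.759). Cxcl2 was at 1.34, 2.66, 0.840 and 46.8 RPKM in healthy blood neutrophils, where replicate 4 exceeded every tumor-bearing library, and the log2 fold change was 0.64 ± 1.15 (edgeR adjusted p = 0.802). Cxcl3 was at 3.02 RPKM in healthy replicate 4 and 0.0753 to 0.126 in the others, against 0.450 to 4.22 in tumor-bearing mice (1.12 ± 1.19, edgeR adjusted p = 0.648). Cxcl1 was under 1 RPKM in all 8 libraries (0.51 ± 0.74, edgeR adjusted p = 0.747), and Cxcl5 was not tested. In blood monocytes 2 members were tested and 0 called in edgeR, DESeq2 or limma-voom, 0 having an unadjusted p under 0.05, beside 0.209% of all genes called. Cxcl2 was at 0.263 to 5.87 RPKM in monocytes of tumor-bearing and 0.0796 to 2.74 of healthy mice (1.64 ± 1.31, edgeR adjusted p = 0.733), and Cxcr2 changed by 1.03 ± 0.95 (edgeR adjusted p = 0.773).

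Cell types of the same site were then set against each other. Blood neutrophils of tumor-bearing mice exceeded blood monocytes of these mice in both receptors, and 4 of 5 members tested were called, all higher in neutrophils, beside 38% of all genes. Cxcr2 had a log2 difference of 8.84 ± 1.07 (edgeR adjusted p = 8.57e-05), Cxcr1 of 7.40 ± 0.95 (edgeR adjusted p = 0.000127), Cxcl3 of 4.40 ± 0.96 and Cxcl2 of 3.88 ± 0.90. Cxcl1 did not pass the test (2.30 ± 1.05, edgeR adjusted p = 0.0902). Titles of both groups name some of the same animals, and the fit took the libraries as independent. In healthy colon, stromal cells held more ligand mRNA than epithelial cells, and 3 of 5 members tested were called, beside 30.9% of all genes. Epithelial minus stromal, the log2 difference was -5.47 ± 0.97 for Cxcl1 (edgeR adjusted p = 0.00192), -3.81 ± 0.97 for Cxcl2 and -3.30 ± 0.82 for Cxcl3, with no overlap of RPKM for any of the 3. Cxcl5 (-1.13 ± 1.23) and Cxcr2 (-1.86 ± 1.51) did not pass the test. The dissociation-response genes summed to 810 to 1880 RPKM in healthy stromal and 58.7 to 348 in healthy epithelial cells, without overlap. Stromal replicate 4, the library highest in Cxcl1, had the highest of these sums. Their part in the ligand result was not tested.

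Within tumors, neutrophils had the highest mean RPKM of every member but Cxcl5, and the 4 cell types were fitted together. Against monocytes, 5 of 6 members were called higher in neutrophils, beside 13.8% of all genes. Cxcl2 was higher by 2.74 ± 0.72 (edgeR adjusted p = 0.0188) and Cxcl3 by 2.79 ± 0.68 (edgeR adjusted p = 0.0128) on the log2 scale. The edgeR differences were larger than those in RPKM, where the ratios of means were 3.84 for Cxcl2 and 3.86 for Cxcl3. The cause of this gap was not tested. The calls of Cxcl2 and Cxcl3 were lost without neutrophil replicate 2, when 2 of 6 members were called, and that of Cxcl2 also without monocyte replicate 1 or 3. Cxcr2 was higher by 8.76 ± 1.40 (edgeR adjusted p = 0.00111). Cxcr1, with 1236 counts in tumor neutrophils and 0 in tumor monocytes, was at least 430-fold higher relative to the total count, taking 3 counts over the 4 monocyte libraries as the limit that 0 counts allow. Such limits and counts cover counting error only. Cxcl1 was called close to the threshold, higher by 1.74 ± 0.57 (edgeR adjusted p = 0.0497). Its RPKM overlapped between the groups, with a ratio of means of only 1.87 (exact two-sided permutation p = 0.229). Leaving out 1 library ended that call in 14 of 16 cases, all but neutrophil replicate 1 and monocyte replicate 4, and without monocyte replicate 1, 3 members were called.

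Against tumor epithelial cells, again 5 of 6 members were called higher in neutrophils, beside 21.6% of all genes, with log2 differences of 8.49 ± 0.93 for Cxcl2, 8.96 ± 0.89 for Cxcl3 and 14.13 ± 1.70 for Cxcr2. The ratios of mean RPKM were again smaller than these, at 160 for Cxcl2 and 223 for Cxcl3. Cxcr1 had 1 count in the 4 tumor epithelial libraries. Cxcl5 was the exception, with 0.324 ± 0.313 RPKM in neutrophils and 1.28 ± 0.561 in epithelial cells (log2 difference -1.40 ± 1.36, edgeR adjusted p = 0.451). Against tumor stromal cells 5 of 6 members were called, beside 16.1% of all genes, with 5.76 ± 0.83 for Cxcl2, 6.42 ± 0.80 for Cxcl3 and 5.13 ± 1.19 for Cxcr2. Here too the ratios of mean RPKM were smaller, at 25.9 for Cxcl2 and 39.5 for Cxcl3. With the animal named in the titles as a block, 0 were called against stromal cells, which share 1 named animal with the neutrophils. Cxcl2 then differed by 3.98 ± 0.69 and Cxcl3 by 4.78 ± 0.67 (edgeR adjusted p = 0.0598 each). In the same fit the Cxcl1 call alone was lost against monocytes and epithelial cells. Cxcl1 was higher in neutrophils by 1.71 ± 0.57 than in epithelial cells and by 1.73 ± 0.57 than in stromal cells, both called, but its RPKM overlapped. The ratios of its mean RPKM were only 1.49 and 1.60, with an exact two-sided permutation p of 0.457 and 0.429. Leaving out 1 of the 16 tumor libraries ended the call against epithelial cells in 4 cases and that against stromal cells in 10, neutrophil replicate 2 being 1 of each.

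Tumor monocytes exceeded tumor epithelial cells in Cxcl2 by 5.75 ± 0.83 (edgeR adjusted p = 0.000133) and in Cxcl3 by 6.17 ± 0.79 (edgeR adjusted p = 5.94e-05), with 4 of 6 members called beside 29% of all genes. Cxcl1 did not pass the test, at 9.17 ± 5.32 RPKM in monocytes and 11.5 ± 8.41 in epithelial cells (log2 difference -0.03 ± 0.56, edgeR adjusted p = 0.974). Cxcl5 was lower in monocytes, by -4.51 ± 1.57 (edgeR adjusted p = 0.0372), a call lost when any 1 of 7 of these 8 libraries, all but monocyte replicate 3, was left out. Against tumor stromal cells, 4 of 6 members were called beside 20.3% of all genes, with Cxcl2 higher by 3.02 ± 0.73 and Cxcl3 by 3.63 ± 0.70 in monocytes. With the named animal as a block, 0 were called here, and against epithelial cells the Cxcl5 call was lost. Cxcr1 and Cxcr2 were lower in monocytes, Cxcr2 by -3.63 ± 1.11 (edgeR adjusted p = 0.0267). Without tumor stromal replicates 3 and 4 the Cxcr2 difference was 0.50, and that call was also lost without monocyte replicate 2, 3 or 4. Tumor epithelial cells had 3 of 6 members called lower than stromal cells, beside 4.09% of all genes: Cxcl2 by -2.72 ± 0.72 (edgeR adjusted p = 0.0417), Cxcl3 by -2.54 ± 0.67 (edgeR adjusted p = 0.0425) and Cxcr2 by -9.00 ± 1.44 (edgeR adjusted p = 0.00414). Without stromal replicates 3 and 4, 0 were called, and without any 1 of stromal replicates 3 and 4, epithelial replicates 1, 2 and 4, neutrophil replicates 3 and 4 and monocyte replicates 2 and 3, 1 was.

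The make-up of ligand mRNA differed between cell types. Summed over the 4 ligands, tumor neutrophils held 385 to 1088 RPKM, tumor monocytes 96.7 to 303, tumor stromal cells 15.5 to 55.2 and tumor epithelial cells 8.29 to 36.4. Cxcl2 was 87.4% ± 2.97 of that sum in tumor neutrophils and 84.7% ± 1.74 in tumor monocytes (SD, n = 4 each), and Cxcl1 was 2.26% ± 0.739 and 4.42% ± 0.825. In tumor epithelial cells Cxcl1 was 67.8% ± 6.49 and Cxcl2 20.6% ± 6.16, close to the 73.5% ± 12.3 and 19.2% ± 10.5 of healthy epithelial cells, whose sum was only 0.396 to 1.47 RPKM. Healthy colon stromal cells were 85.3% ± 5.21 Cxcl1. Tumor stromal cells varied widely, with a Cxcl2 share of 27.6% to 82.2% (mean 56.2% ± 28.8), which overlapped the shares of 74.4% to 92.7% in blood neutrophils of healthy mice. The high Cxcl2 shares were in tumor stromal replicates 3 and 4, the libraries with high neutrophil marker sums. The ratio of Cxcl2 to Cxcl1 was 27.8 to 60.1 in tumor neutrophils, 0.423 to 6.69 in tumor stromal cells and 0.181 to 0.429 in tumor epithelial cells. Cxcl2 to Cxcl3 varied less, with group medians from 5.29 to 14.7. Cxcl5 was 9.49% ± 6.14 of the sum in tumor epithelial cells and under 0.2% in every tumor neutrophil and tumor monocyte library.

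**Figure D4:**
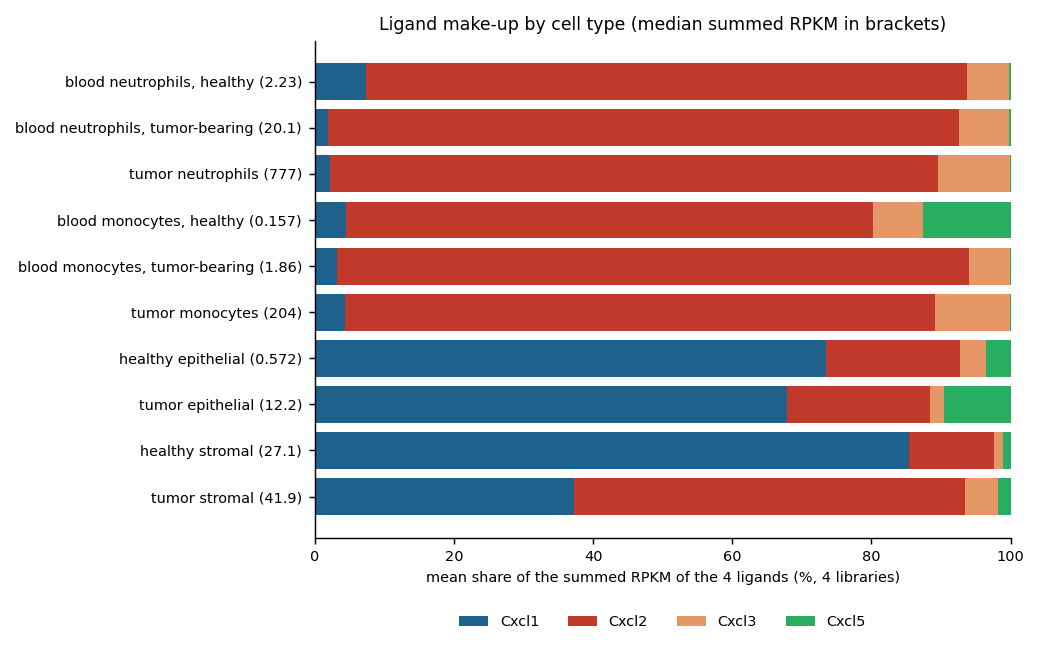
Mean share (%) of each ligand in the summed RPKM of the 4 ligands, by group (4 libraries each), with the median sum in brackets. Cxcl2 fills most of the bar in neutrophils and monocytes (87.4% and 84.7% in tumors), and Cxcl1 fills most of it in epithelial cells and healthy stromal cells.

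Some genes known to induce these ligands were also higher in tumor myeloid cells. Of 14 tested inducer genes, among them cytokines, their receptors and NF-kappaB subunits, 7 were higher and 0 lower in tumor than in blood neutrophils, with a median log2 fold change of 1.78, beside 11.9% of all genes called higher and a median of 0.11. In monocytes 9 of 15 were higher, with a median of 1.92 beside 7.76% and a median of -0.03. The largest change in both was in Il1a, a cytokine that acts on neighboring cells through the interleukin 1 receptor, with 52.2 ± 8.96 RPKM in tumor neutrophils against 0.330 ± 0.417 in those of blood, a log2 fold change of 7.40 ± 1.00 (edgeR adjusted p = 0.00108). A list of 11 genes of NF-kappaB feedback and of the stability of such mRNAs, which includes the mRNA stabilizer Elavl1 and the interleukin 17 adaptor Traf3ip2, had 5 members called higher in neutrophils (median 1.18) and 6 in monocytes (median 1.69), and 0 lower in either. Nfkbia, Nfkbie, Tnfaip3 and Tnip1, which restrain NF-kappaB, and the ribonuclease gene Zc3h12a were called in both, and Zfp36l1, an mRNA-decay gene, in monocytes. Tnfaip3, which edits ubiquitin on NF-kappaB signaling proteins, had the largest change of the called genes in both, with 6.17 ± 0.86 in neutrophils and 4.14 ± 0.44 in monocytes. In tumor epithelial cells 2 of 14 inducers were higher and 3 lower, beside 7.52% and 7.88% of all genes, and Il1r1, a receptor for interleukin 1, fell by 2.11 on the log2 scale (SE 0.30, edgeR adjusted p = 0.000639). In tumor stromal cells 2 of 17 inducers were higher, beside 3.39% of all genes, among them Tnf (4.06 ± 0.68, edgeR adjusted p = 0.00974).

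Signaling and desensitization genes of CXCR2 moved in both directions. Of 18 in neutrophils, 1 was higher and 4 lower in tumor (median -0.84, beside 11.9% of all genes higher and 4.41% lower), and of 18 in monocytes 2 were higher, Rgs1 and Vasp, and 1 lower, Grk6 (median -0.70, beside 7.76% and 3.89%). Rgs18, which limits G protein signaling, was lower by 2.94 on the log2 scale in tumor than in blood neutrophils (SE 0.64, edgeR adjusted p = 0.0105). With limma-voom, 8 of the 18 were called in neutrophils, beside 2253 of all 13674 genes, 1367 of them higher and 886 lower. Of the other neutrophil chemoattractant receptors and retention genes, 1 of 8 was higher in tumor neutrophils, a share near the 11.9% of all genes: Ptafr, the receptor for platelet-activating factor (3.02 ± 0.47, edgeR adjusted p = 0.00208). In tumor monocytes 4 of 7 were higher, beside 7.76% of all genes, led by C5ar1, the receptor for the complement peptide C5a (4.31 ± 0.38). Cxcr4, which holds neutrophils in the marrow through its ligand Cxcl12, was among the 4, rising from 6.84 ± 3.92 to 51.1 ± 10.3 RPKM (3.16 ± 0.41, edgeR adjusted p = 0.000556). In neutrophils it was at 22.7 ± 8.16 RPKM in blood and 38.5 ± 13.6 in tumor (0.93 ± 0.49, edgeR adjusted p = 0.223). In blood neutrophils, 2 of 8 such receptors were higher in tumor-bearing than in healthy mice beside 1.79% of all genes, led by Fpr1, the formyl peptide receptor (1.61 ± 0.25, edgeR adjusted p = 0.00585). In tumor stromal cells 3 of 8 were higher than in healthy ones, Fpr2, C5ar1 and Ccr1, with a median log2 fold change of 3.72, beside 3.39% of all genes. Limma-voom called 527 of 19081 genes higher and 0 of these 3. These are genes of myeloid cells, and the neutrophil marker sums of tumor stromal replicates 3 and 4 given above stand beside them, their part not tested.

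Ppbp, the platelet CXCR2 ligand, moved against the 3 ligands. It was at 23.6 ± 15.8 RPKM in blood and 0.347 ± 0.296 in tumor neutrophils (log2 fold change -6.24 ± 0.93, edgeR adjusted p = 0.00165), and at 15.0 ± 15.4 and 0.151 ± 0.0937 in the 2 sets of monocytes (-6.36 ± 1.17, edgeR adjusted p = 0.00421). The 7 platelet and erythroid markers summed to 4.89 to 492 RPKM in blood and 2.91 to 60.9 in tumor neutrophils, and to 3.18 to 347 and 0.526 to 2.73 in monocytes. Their part in the Ppbp result was not tested. Ackr1, a decoy receptor of venules that binds these chemokines, was a stromal transcript at 12.1 ± 1.41 RPKM in healthy and 4.57 ± 5.59 in tumor stromal cells (-1.12 ± 1.12, edgeR adjusted p = 0.581). Cxcl12 was at 27.1 ± 16.01 RPKM in healthy and 5.32 ± 6.53 in tumor stromal cells (-2.10 ± 1.23, edgeR adjusted p = 0.332). Endothelial markers summed to 4.58, 3.85, 115 and 128 RPKM in tumor stromal replicates 1 to 4 and 14.5 to 125 in healthy stromal cells. Fibroblast markers summed to 6.03 to 24.1 RPKM in tumor and 359 to 2017 in healthy stromal cells, without overlap. The part of endothelial cells and fibroblasts in the Ackr1 and Cxcl12 results was not tested.

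Over the 40 libraries, the gene most like Cxcl2 in log2(RPKM + 1) was Cxcl3 (Pearson r = 0.956), and Cxcl2 was the gene most like Cxcl3, among genes with a group mean of at least 5 RPKM. Rab20 was next for both, at 0.928 and 0.943, and Il1a was among the 5 most like Cxcl3 at 0.919. Cxcl1 was less like Cxcl2 (0.535), and its nearest genes were Homer1 (0.919), Maff (0.912) and Ifrd1 (0.904). Cxcl5 was most like Cfi (0.931), Grhl3 (0.926) and Slc38a4 (0.916), each with its highest mean in tumor epithelial cells. Cxcr2 was most like Mmp9 (0.982), a neutrophil granule protease, and Il18rap (0.981), and Cxcr1 was most like Mrgpra6 (0.983) and BC100530 (0.981). The 2 receptors had an r of 0.923. These are descriptions over libraries that share cell type, depth and, in part, animals.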

How the data were processed

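Amplified RNA of sorted cells was sequenced as single reads. The authors mapped the reads to mm10 with Bowtie2 and deposited, per gene and library, an expected count (99.6% of nonzero values were not whole within 1e-06) and an RPKM value. The deposited RPKM values equal the counts times 1 constant per gene and 1 per library, which was 0.642 to 1.55 times that of the total count. Expected counts were rounded and tested with edgeR 4.0.16 (robust quasi-likelihood, TMM, filterByExpr, Benjamini-Hochberg over all genes tested) in R 4.3.3; a call needed an adjusted p under 0.05 and a log2 fold change beyond 1.5. The SE is the log2 fold change divided by the root of F. Fits used the groups compared, the 4 tumor cell types being fitted together. The count filter keeps a gene that is high enough in 1 group alone, so a count of members called can be partly fixed by it. RPKM means were compared with exact two-sided permutation tests over 70 arrangements of 4 against 4 libraries, which give no p below 0.0286. The scripts were tested on simulated data. Alternatives used limma 3.58.1 (voom, and log2(RPKM + 1) or log2(RPKM + 0.1)), DESeq2 1.42.0, RLE factors, other filters, no mitochondrial genes, all 40 libraries, no fold threshold, blocks and left-out libraries; leaving out pairs of tumor stromal libraries was added after seeing the data.

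Symbols were matched for 45143 of 45706 Ensembl genes. The 6 members, pathway lists and marker lists were chosen with earlier results of these data known. Named genes were the members, the called gene of each pathway list with the largest change and a mean log2 CPM of at least 3, Ppbp, Ackr1, Cxcr4 and Cxcl12, and the genes most like each member. Any other list gene was named with its values already known. The labels give replicate number 3 to 2 tumor stromal libraries; 1 of them is called replicate 4 here. Titles name an animal for most libraries, and the p-values measure the spread between these libraries only.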

Additional observations from a re-analysis of the deposited data

Results flagged for a closer look

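Of 53 sets of 4 libraries (1 member in 1 group, with more than 3 counts in some library), 14 had 1 library far from the other 3 by Dixon's gap criterion at its 95% level. That level marks about 1 set in 20 by chance only for normally distributed values, which RPKM values need not be. In each flagged set the far library was the high one, so the number of sets is a description only. Blood libraries of healthy mice stood out most often. Replicate 4 was high in neutrophils for Cxcl2 (46.8 RPKM) and Cxcl3 (3.02 RPKM), and replicate 4 of the monocytes for Cxcl1 (0.267 RPKM), Cxcl2 (2.74 RPKM) and Cxcl3 (0.183 RPKM). The titles of both these libraries name the same mouse, with a second mouse pooled into the monocyte library. Monocyte replicate 3 of healthy mice was high for Cxcl5 (0.110 RPKM).

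In blood monocytes of tumor-bearing mice, replicate 1 was high for Cxcl1 (0.455 RPKM) and Cxcr1 (0.179 RPKM). Healthy colon stromal replicate 4 was high for Cxcl1 (147 RPKM) and Cxcl3 (1.41 RPKM). Healthy colon epithelial replicate 1 was high for Cxcl5 (0.185 RPKM) and replicate 4 for Cxcr2 (0.149 RPKM). In tumors, neutrophil replicate 2 was high for Cxcl1 (32.6 RPKM) and monocyte replicate 3 for Cxcl5 (0.175 RPKM). The causes were not tested.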

How the results depend on the processing

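Tumor against blood neutrophils kept 3 members called under every alternative run. The change of blood monocytes and the difference between the neutrophil and monocyte changes had 0 called throughout. Over the 45 single-member calls, 952 of 1123 alternative values kept their call, 170 lost it and 1 turned its direction: Cxcr2 in tumor monocytes against stromal cells, 0.50 without stromal replicates 3 and 4. The cause of the other shifts was not tested. The run with no fold threshold reuses the main fit, so its values, counted among the 952, kept their call by construction.

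Requiring at least 10 counts in every library, which leaves fewer members to test, gave 1 member called in tumor against blood monocytes, in tumor against healthy epithelial cells and in healthy epithelial against stromal cells, 2 in blood neutrophils against blood monocytes, 3 in tumor neutrophils against monocytes, and 2 in tumor neutrophils against epithelial or stromal cells and in tumor monocytes against either. Over all genes, the first 4 of these comparisons had 1256 of 10263, 1246 of 10694, 2245 of 10560 and 2605 of 9104 called. Of 6840 genes within tumors, 1060 were called in neutrophils against monocytes. Against epithelial and stromal cells, neutrophils had 2227 and 1459 called and monocytes 1755 and 1116. With 1 spread over all 40 libraries, blood neutrophils of tumor-bearing against healthy mice had 0 called, tumor against healthy epithelial cells 1, tumor against healthy stromal cells 2 and tumor neutrophils against monocytes 2. Of 22122 genes, 366, 2576, 2267 and 4176 were called in these 4 comparisons. With log2(RPKM + 1) these 4 comparisons had 0, 2, 0 and 3, tumor monocytes against epithelial or stromal cells 2 and tumor epithelial against stromal cells 0. This setting called fewer genes of all kinds. The first 3 comparisons had 130 of 13360, 575 of 16085 and 555 of 19081 called, against 536, 2476 and 1602 in the main fits. With log2(RPKM + 0.1), tumor against healthy stromal cells had 0, tumor neutrophils against monocytes 3, tumor monocytes against stromal cells 2 and tumor epithelial against stromal cells 1. Over all genes, 1908 of 19081 were called in the first of these.

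For tumor against healthy stromal cells, limma-voom, no filter and the removal of mitochondrial genes gave 0 members, DESeq2 gave 3 and leaving out tumor replicates 1 and 2 gave 3. Over all genes, these 5 runs called 1511 of 19081, 1625 of 34532, 1565 of 18652, 2713 of 19081 and 1192 of 20786. Limma-voom gave 2 in tumor monocytes against stromal cells and 0 in tumor epithelial against stromal cells, where RLE factors gave 1. Of 19026 genes, limma-voom called 4566 in the first and 169 in the second, where RLE factors called 767. Without tumor stromal replicates 3 and 4 these 2 contrasts had 2 and 0. Leaving out 1 library gave 0 to 2 members in blood neutrophils of tumor-bearing against healthy mice and in tumor against healthy stromal cells, 2 to 5 in tumor neutrophils against monocytes and 1 to 4 in tumor epithelial against stromal cells. Over all genes, the first 2 of these comparisons then had 259 to 604 and 827 to 1761 called.

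In none of 6 comparisons did all 4 same-numbered pairs have deviations correlated above 0.1, so the numbers were not taken to pair the libraries. The nearest were blood monocytes of tumor-bearing against healthy mice, with 3 of 4 pairs above 0.1 (0.0653 to 0.255), and tumor against healthy stromal cells, with 2 of 4 (-0.105 to 0.192). With the replicate number as a block, blood neutrophils of tumor-bearing against healthy mice had 0 members called, Cxcr1 having an edgeR adjusted p of 0.0747, tumor epithelial against stromal cells had 1, and in tumor against healthy stromal cells Cxcl2 was called in place of Cxcr2. Over all genes, this block gave 353 of 13360 called in these blood neutrophils and 1396 of 19081 in tumor against healthy stromal cells. With the title animal as a block, tumor neutrophils against stromal cells and tumor monocytes against stromal cells had 0. Same-numbered libraries need not come from the same animal, so the check of pairs above could not find pairing by animal. The title animal was a block only in fits of 4 groups. In fits of 2 groups the libraries were taken as independent, although some of these groups share named animals.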
